A study of Rattus norvegicus with 64 samples.

Results

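Cytosolic ribosomal protein genes encode the proteins of the ribosome that works outside mitochondria. They were chosen by symbol, as genes named Rpl or Rps with a number, together with Rpsa and Rplp0, and 1 row was kept per symbol. The rule found 68 genes among 32551 gene rows, 39 of the large subunit and 29 of the small subunit. Among the 68 were 7 symbols of paralogs or copies: Rpl10l, Rpl22l1, Rpl7l1, Rps10l1, Rps18l1, Rps27l and Rps9l1. Rplp1, Rplp2, Rps19, Rpl3l and Rpl39l had no row that the rule could find.

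RNA sequencing covered hippocampus (HPC) and cortex (CE) of 32 rats, which gave 64 libraries. Their genotype was labelled ApoE3 or ApoE4, and apolipoprotein E is a carrier of lipids in brain and blood. They were given either doxorubicin, an anthracycline used against cancer that traps topoisomerase II on DNA, or PBS, a buffered salt solution. The 8 groups by tissue, genotype and drug had 8 libraries each, 4 from male and 4 from female rats, and replicates within a group are separate animals, each of which gave both tissues. Doxorubicin was dosed at 2 mg/kg on 4 weekly occasions in rats that were 5 weeks old at the start, and brains were taken 5 to 6 weeks after the final dose. How the ApoE lines were made, and which promoter drives the gene, is not given in the sources used here. Rat numbers run in blocks by genotype, sex and treatment, so a batch that follows these blocks cannot be told apart from them. Library totals ran from 10836181 to 20397553 counts, and mitochondrially encoded transcripts took 6.15% to 10.4% of them. Levels are given as CPM, counts scaled for library size. The dentate gyrus gene Prox1 lay at 68.2 to 114.5 CPM in all hippocampal libraries and at 10.2 to 18.7 CPM in all cortical ones. The cortical gene Tbr1 lay at 16.5 to 36.1 CPM and at 64.1 to 97.8 CPM, so both follow the tissue labels. Of 5 measured hippocampal markers, 4 were called higher and 1 lower in hippocampus of PBS rats of both genotypes (edgeR, adjusted p under 0.05). Of 5 measured cortical markers, 5 had lower values there, with 4 called in ApoE3 and 5 in ApoE4 rats.

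The small ribosomal subunit reads the messenger RNA and the large subunit joins amino acids into protein. Ribosomal proteins are made in matched amounts, are carried to the nucleolus and are assembled there on ribosomal RNA, and neurons depend on them for protein synthesis at synapses. Their messenger RNAs typically begin with a run of pyrimidines, the 5′ terminal oligopyrimidine tract, through which the growth-regulating kinase mTOR and the RNA-binding protein Larp1 control their translation. Under nucleolar stress, free Rpl5 and Rpl11 bind Mdm2, the ubiquitin ligase of p53.

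The start of the transcript is shown for 10 genes that the results below turn on, since the tract is the sequence feature that the family is known for. The sequences are from RefSeq (GRCr8), which listed 67 of the 68 symbols and gave a start sequence for 53. Each is the coding strand, 5′ to 3′, with 30 bases before the annotated start and 15 bases from it. Capitals mark the unbroken run of C and T that begins at the annotated first base.
Rplp0: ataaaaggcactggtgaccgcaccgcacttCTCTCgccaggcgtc
Rpl28: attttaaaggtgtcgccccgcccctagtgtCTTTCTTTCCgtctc
Rps27: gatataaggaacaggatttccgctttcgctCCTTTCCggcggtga
Rps27l: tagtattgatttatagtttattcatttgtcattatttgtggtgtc
Rpl22: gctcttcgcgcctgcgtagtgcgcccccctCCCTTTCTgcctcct
Rpl22l1: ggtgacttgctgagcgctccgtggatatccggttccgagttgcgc
Rps10: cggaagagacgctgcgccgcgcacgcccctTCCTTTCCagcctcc
Rpl12: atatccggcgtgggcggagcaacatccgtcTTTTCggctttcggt
Rps2: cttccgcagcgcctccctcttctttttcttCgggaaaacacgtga
Rps16: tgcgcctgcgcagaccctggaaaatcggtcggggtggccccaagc

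These windows lie at chr12:46718376-46718420 (Rplp0, minus strand), chr1:78083518-78083562 (Rpl28, minus), chr2:177964592-177964636 (Rps27, minus), chr8:76443628-76443672 (Rps27l, plus), chr5:168117931-168117975 (Rpl22, plus), chr2:113683166-113683210 (Rpl22l1, plus), chr20:5700730-5700774 (Rps10, minus), chr3:36661910-36661954 (Rpl12, plus), chr10:14251818-14251862 (Rps2, plus) and chr1:92770628-92770672 (Rps16, plus). A C at the annotated start followed by 4 bases that are each C or T, read on the coding strand only, was present in 16 of 53 members (30.2%) and in 722 of 27457 genes of the table (2.63%). Rps27l and Rpl22l1 differed from their parent genes here. Rps27 and Rpl22 hold the tract and Rps27l and Rpl22l1 do not, and 0 of 4 paralog symbols with a sequence hold it against 16 of 49 other members. Genes of the mitochondrial ribosome held it in 2 of 56. Rps10 and Rpl12 begin with a pyrimidine run whose first base is T and so do not match. No match says only that these letters are not at the annotated first base.

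Together the 68 genes took 0.891% to 1.29% of the gene counts of a library. In hippocampus the large subunit genes had group medians of 0.585% to 0.605% and the small subunit genes of 0.399% to 0.414%, and the 4 groups overlapped. In cortex, ApoE3 groups had medians of 0.641% (PBS) and 0.644% (doxorubicin) for the large subunit, and ApoE4 groups 0.580% and 0.577%. The small subunit followed the same order, with 0.439% in both ApoE3 groups and 0.409% and 0.404% in the ApoE4 groups. For both subunits together, the 4 male ApoE3 PBS rats had 1.29% (rat 37), 1.22% (rat 45), 1.16% (rat 41) and 1.07% (rat 43) in cortex and the 4 females of that group 1.00% to 1.09%, while rat 58, a female, had 1.19% in hippocampus. In bulk tissue, a different mix of cells and a different amount of RNA per cell cannot be told apart.

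**Figure D1:**
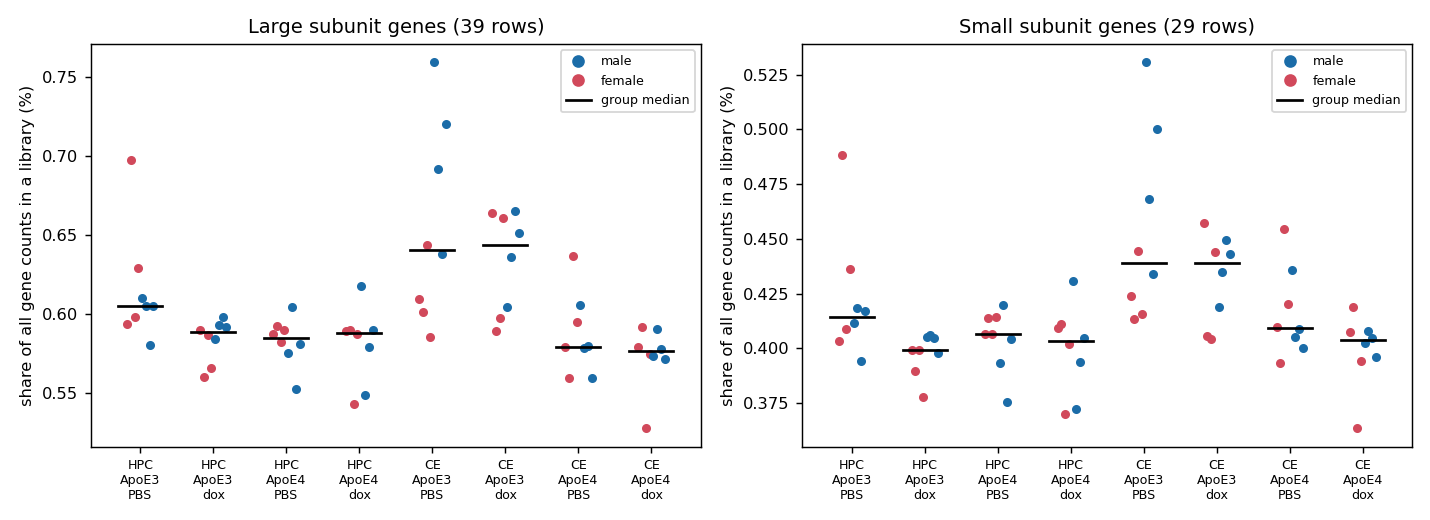
Share of all gene counts of a library, in percent, taken by the 39 large subunit genes (left) and the 29 small subunit genes (right), for the 8 groups of region, genotype and treatment, with 1 point per library and the group median as a bar. ApoE3 cortex has the highest medians in both panels, and rat 58 in ApoE3 PBS hippocampus and rat 32 in ApoE4 doxorubicin cortex stand apart from their groups.

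The rows of 6 members held almost no counts, which limits what they can show. The Rpl38 row had 349 counts over all 64 libraries and was at 0 in 17 of them. Rpl7a had 619, Rps6 700, Rps18 967, Rpl10l 1781 and Rps27l 4486 counts. Rps6, the substrate of the S6 kinases, and Rpl7a are structural proteins of every ribosome, and how the authors' counter treated reads that match near-identical copies is not given in the sources used here, so rows with such copies (Rps10 and Rps10l1, Rps18 and Rps18l1 among them) are uncertain. The other 62 members had medians over the 64 libraries from 15.1 CPM (Rps9l1) to 467 CPM (Rpl3).

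Of the 65 to 67 members tested, 0 passed in any of the 4 comparisons of doxorubicin with PBS (edgeR, 8 against 8 libraries, adjusted p under 0.05). There 0 genes of any kind passed. In cortex of ApoE3 rats, where 0% of 14770 genes passed, 61 of 67 members had values below PBS with a median log2 change of -0.07, against -0.00035 over all genes, and 6 (8.96%) had an unadjusted p under 0.05, against 9.25% of all genes. In cortex of ApoE4 rats 58 of 65 had values below PBS (median -0.04, all genes -0.00089, background 0%), and 9 (13.8%) had an unadjusted p under 0.05, against 8.85% of all genes. In hippocampus 62 of 66 did so in ApoE3 rats (median -0.06, all genes 0.0015, background 0%) and 36 of 67 in ApoE4 rats (median -0.0066, all genes -0.0029, background 0%). There 13 (19.7%) and 3 (4.48%) had an unadjusted p under 0.05, against 10.3% and 7.38% of all genes. These directions are relative to other genes: scaling to the ERCC spike-ins put 66 of 66 and 66 of 67 members above PBS in ApoE3 and ApoE4 hippocampus (medians 0.19 and 0.30) and 64 of 67 and 65 of 65 in cortex (medians 0.12 and 0.12). That scaling moved the median of all genes to 0.24, 0.31, 0.18 and 0.16, again with 0 members passing. Without rat 58 the ApoE3 hippocampal median was -0.03, with 53 of 67 below PBS, and without rat 32 the ApoE4 cortical median was -0.03, with 50 of 66 below PBS.

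Both subunits had like values. The large and small subunit medians were -0.05 and -0.06 in ApoE3 hippocampus, -0.06 and -0.07 in ApoE3 cortex, and -0.04 and -0.05 in ApoE4 cortex. Among members given an adjusted p in the authors' deposited results, 0 were under 0.05 in any of the 4 comparisons, and the smallest values were 0.119 to 0.489. DESeq2 run on the counts called 0 members in all 4, with 152 and 0 genes of any kind in ApoE3 and ApoE4 hippocampus and 81 and 33 in cortex. In ApoE3 hippocampus the summed level of 5 meningeal fibroblast markers was 64.5 to 443 CPM in PBS and 48.7 to 126 CPM in doxorubicin rats, and its part in the values there was not tested.

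**Figure D2:**
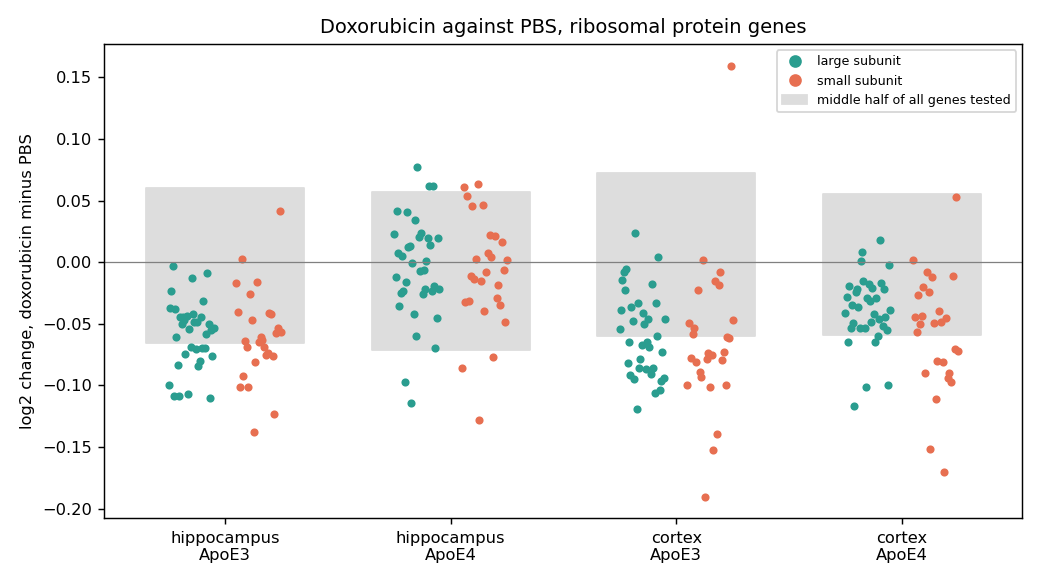
Log2 change of each ribosomal protein gene, doxorubicin minus PBS, in the 4 comparisons (TMM scaling, members with an average of at least 2 on the log2 CPM scale, 1 point per gene), beside the span from the 25th to the 75th percentile of all genes tested as a grey band. Most points lie below 0 in every comparison except ApoE4 hippocampus, an order that spike-in scaling turns to above 0, and 0 points passed the test.

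Rps2, a protein of the messenger RNA entry channel of the small subunit, had the lowest value of the 62 members outside the sparse rows in all 4 comparisons. In ApoE3 cortex it ran from 247 to 308 CPM in PBS rats (median 258) and from 213 to 258.6 CPM in doxorubicin rats (median 232). The groups overlapped, and the log2 change was -0.19 (SE 0.05, adjusted p = 0.243). In the other comparisons it was -0.14 (SE 0.06) in ApoE3 hippocampus, -0.13 (SE 0.08) in ApoE4 hippocampus and -0.15 (SE 0.07) in ApoE4 cortex.

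Other genes of smallest p were Rpl10, which joins the large subunit late in its assembly (-0.10, SE 0.03, adjusted p = 0.232), Rps4x (-0.12, SE 0.04, adjusted p = 0.248) and Rpl24 of a bridge between the subunits (-0.11, SE 0.04, adjusted p = 0.316) in ApoE3 hippocampus. In ApoE3 cortex they were Rps25, needed for some forms of cap-independent initiation (-0.15, SE 0.06, adjusted p = 0.432), and Rpl6 (-0.10, SE 0.04, adjusted p = 0.455). In ApoE4 cortex they were Rps23 of the decoding centre (-0.11, SE 0.04, adjusted p = 0.407), Rpl17 of the exit tunnel (-0.12, SE 0.04, adjusted p = 0.409) and Rps3 of the entry channel (-0.09, SE 0.04, adjusted p = 0.455). ApoE4 hippocampus had values on both sides of 0, from Rpl18 (-0.10, SE 0.04, adjusted p = 0.638) and Rpl6 (-0.07, SE 0.03, adjusted p = 0.638) to Rpl27a (0.08, SE 0.03, adjusted p = 0.650).

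Rps9l1 went against the rest in 3 of the 4 comparisons, with log2 changes of 0.16 (SE 0.07, adjusted p = 0.497) in ApoE3 cortex, 0.05 (SE 0.08) in ApoE4 cortex and 0.04 (SE 0.08) in ApoE3 hippocampus. In ApoE3 cortex it ran from 10.8 to 16.3 CPM in PBS rats and from 13.4 to 17.8 CPM in doxorubicin rats, and the groups overlapped. The Mdm2 binders had -0.10 (SE 0.05, Rpl5) and -0.04 (SE 0.05, Rpl11) in the same comparison. Rps27l, a paralog that p53 induces, lay at 3.18 to 5.68 CPM in PBS rats and 3.70 to 5.08 CPM in doxorubicin rats there, with a log2 change of -0.02 (SE 0.12), and had changes of -0.07 to -0.17 in the other 3. The size of the doxorubicin effect differed between genotypes for 0 members in either region, and between regions for 0 members in either genotype. The background was 0% in each of these 4 tests, and unadjusted p was under 0.05 for 3 of 68 and 0 of 67 members by genotype in hippocampus and cortex, and for 1 of 67 and 2 of 68 by region in ApoE3 and ApoE4 rats. Over all genes these shares were 8.18%, 5.45%, 8.01% and 3.59%, each above that of the members. In hippocampus the log2 change with doxorubicin was higher in ApoE4 than in ApoE3 rats for 60 of 68 members (median difference 0.06, all genes -0.0028). Without rat 58 this held for 49 of 68 (median difference 0.03).

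Genotype separated the ribosomal protein genes in cortex. Among PBS rats, 37 of 67 tested members were lower and 3 were higher in ApoE4 than in ApoE3 cortex at an adjusted p under 0.05, where 18.2% of 15314 genes passed in either direction (8.57% lower, 9.63% higher). The median log2 change of the members was -0.15, against -0.0072 over all genes. The subunits went together, with 23 of 38 large subunit genes lower (median -0.15) and 14 of 29 small subunit genes lower (median -0.13). The same contrast in the doxorubicin rats, which are other animals, gave 28 lower and 3 higher members of 67 (median -0.14, all genes -0.0082, background 12%: 5.73% lower, 6.25% higher). Of the lower members 25 were shared, which is 67.6% of the PBS list and 89.3% of the doxorubicin list, and the 3 higher members were the same genes, Rps16, Rpl12 and Rps10l1. With spike-in scaling, which also moved the median of all genes to -0.08, 62 of 67 members were below ApoE3 in PBS rats (median -0.22). Of the members 0 passed, where 2.01% of all genes did.

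**Figure D3:**
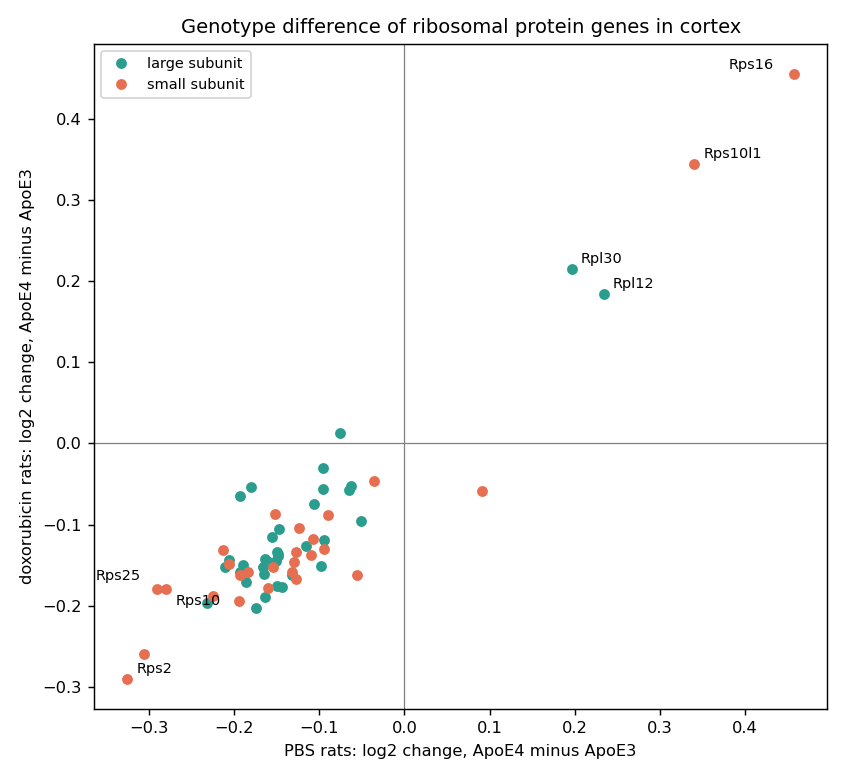
Log2 change of ApoE4 minus ApoE3 in cortex for each ribosomal protein gene, in PBS rats (horizontal) and in doxorubicin rats (vertical), for members with an average of at least 2 on the log2 CPM scale. The bulk of the points lies at about -0.15 on both axes, while Rps16, Rps10l1, Rpl12 and Rpl30 lie above 0 on both.

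The members lowered in ApoE4 cortex of PBS rats with the smallest p came from both subunits. Rps2 ran from 247 to 308 CPM in ApoE3 rats and from 182 to 238 CPM in ApoE4 rats (medians 258 and 226). Every ApoE4 library lay below every ApoE3 library, with a log2 change of -0.33 (SE 0.06, adjusted p = 0.000443).

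Rps25 had ranges of 99.9 to 129 CPM and 83.5 to 103 CPM, which overlapped slightly, and a log2 change of -0.29 (SE 0.05, adjusted p = 0.000227). Rps10 of the small subunit head had -0.28 (SE 0.05, adjusted p = 0.000361), Rpl27 -0.23 (SE 0.04, adjusted p = 0.000106) and Rps15 -0.22 (SE 0.05, adjusted p = 0.00126). Rpl5 ran from 284 to 370 CPM in ApoE3 and from 254 to 310 CPM in ApoE4 rats, with a change of -0.21 (SE 0.05, adjusted p = 0.00146), and Rpl3 near the peptidyl transferase centre had -0.15 (SE 0.04, adjusted p = 0.00624). Rplp0, which anchors the stalk of the large subunit, had -0.06 (SE 0.05, adjusted p = 0.411), Rpl11 -0.06 (SE 0.05, adjusted p = 0.385) and Rpsa, also known as the laminin receptor, -0.13 (SE 0.05, adjusted p = 0.0674), and these 3 did not pass.

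In PBS cortex the counts called differed between males and females. With males only (4 against 4) 46 members were lower and 1 was higher (median -0.25), and with females only 0 were lower and 3 were higher (median -0.03), where 13.6% and 4.30% of all genes passed. The difference between the sexes had a median of 0.20 (female minus male, 65 of 67 above 0), and 0 members passed its test, where 0.0261% of all genes passed, while 33 (49.3%) had an unadjusted p under 0.05, against 11.8% of all genes. By DESeq2 5 members and 1.73% of all genes passed, and with spike-in scaling the median was -0.13 against -0.32 over all genes. In the doxorubicin rats the medians were alike in males and females (-0.14 and -0.14), with 6 lower and 1 higher member in males and 3 lower and 2 higher in females, where 5.02% and 5.34% of all genes passed. Leaving out 1 of the 16 PBS libraries at a time gave 23 to 47 called members, and the members' median less that of all genes ran from -0.17 to -0.11. The share of all genes called in each of these fits is not given here, so the counts cannot be set against it. Without rat 37, 45 or 7 the count fell to 23, 25 and 26, and without rat 32 the doxorubicin rats had 15 lower and 3 higher members, where 10.3% of all genes passed.

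Markers of other cells moved with genotype in the same libraries. The summed level of 5 measured meningeal fibroblast markers of 6 listed ran from 55.9 to 93.5 CPM in ApoE3 and from 68.02 to 206 CPM in ApoE4 PBS cortex, with 5 of 5 above ApoE3 and 4 called. Endothelial markers (3 measured of 5) ran from 128 to 181 CPM and from 172 to 234 CPM, with 3 of 3 called higher. Microglial markers ran from 215 to 313 CPM and from 206 to 263.8 CPM, with 3 of 6 called lower and 1 called higher. Oligodendrocyte markers ran from 7768 to 11691 CPM and from 8995 to 12415 CPM, with 7 of 7 above ApoE3 and 0 called, and astrocyte markers from 1782 to 2598 CPM and from 2137 to 2597 CPM, with 2 of 5 called higher. Of 3 excitatory neuron markers 1 was called higher and 1 lower, 0 of 3 inhibitory neuron markers were called, and 1 of 3 smooth muscle markers was called higher. No listed marker that was measured was at 0. In doxorubicin cortex 0 meningeal and 0 endothelial markers were called, and 3 microglial markers were lower and 1 oligodendrocyte marker was higher. There 1 excitatory neuron and 1 blood marker were called lower and 1 inhibitory neuron marker was called higher. The part of these cells in the ribosomal protein result was not tested.

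In hippocampus genotype touched few members. Among PBS rats 3 were lower and 3 higher of 68, where 3.80% of 15415 genes passed (1.88% lower, 1.91% higher), and the median was -0.05 against -0.00056 over all genes, or -0.02 without rat 58. Among doxorubicin rats 3 were lower and 3 higher, where 3.62% passed (1.75% lower, 1.87% higher), and the median was 0.0077 against -0.0013. With spike-in scaling that median was -0.028 against -0.032 over all genes. It called 0 members in both treatments, where 0.746% (PBS) and 0.688% (doxorubicin) of all genes passed. With males only and females only, 3 and 2 members were called in PBS rats and 3 and 3 in doxorubicin rats, where 0.891%, 1.01%, 0.775% and 0.914% of all genes passed. The 3 higher genes were again Rps16, Rpl12 and Rps10l1 in both treatments. Among the lower genes were Rps2 (-0.27, SE 0.07, adjusted p = 0.0178) and Rps10 (-0.17, SE 0.05, adjusted p = 0.0381) in PBS rats, and Rps10 (-0.24, SE 0.05, adjusted p = 0.00183), Rps2 (-0.26, SE 0.07, adjusted p = 0.0233) and the sparse row Rpl10l (-0.75, SE 0.21, adjusted p = 0.0389) in doxorubicin rats. Hippocampal oligodendrocyte markers were above ApoE3 in 7 of 7 cases in PBS rats, with 2 called. Their sum ran from 6544 to 8456 CPM in ApoE3 and from 8411 to 10718 CPM in ApoE4 rats. Of the other markers in PBS rats, 3 of 6 microglial were called lower, and 1 of 5 astrocyte and 1 of 5 hippocampal were called higher. In doxorubicin rats 1 of 5 astrocyte, 1 of 6 microglial and 1 of 5 meningeal fibroblast markers were called higher. The part of these cells in the values was not tested.

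Rps16, a small subunit protein whose tail reaches toward the transfer RNA site, was the member with the smallest p in all 4 genotype comparisons and went against the family each time. In hippocampus of PBS rats it ran from 293 to 365 CPM in ApoE3 (median 315) and from 381 to 433 CPM in ApoE4 rats (median 420). In cortex of PBS rats the ranges were 301 to 383 CPM (median 336) and 432 to 517 CPM (median 452). In doxorubicin rats they were 279 to 306 and 382 to 445 CPM in hippocampus and 293 to 337 and 392 to 462 CPM in cortex.

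All 32 ApoE4 libraries were thus above the ApoE3 libraries of the same region and treatment. The log2 changes were 0.40 (SE 0.04, adjusted p = 5.57e-09) and 0.46 (SE 0.05, adjusted p = 1.30e-08) in PBS hippocampus and cortex, and 0.48 (SE 0.04, adjusted p = 6.01e-11) and 0.45 (SE 0.05, adjusted p = 1.33e-08) in doxorubicin hippocampus and cortex. In PBS cortex the change was 0.42 (SE 0.06) in males and 0.50 (SE 0.08) in females. With spike-in scaling the changes were 0.30 to 0.45 and did not pass (adjusted p from 0.103 to 0.637).

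Rpl12, a protein of the stalk base of the large subunit, ran from 115 to 137 CPM in ApoE3 and from 138 to 156 CPM in ApoE4 hippocampus of PBS rats, and from 115 to 126 and 143 to 161 CPM in doxorubicin rats. The hippocampal groups did not overlap in either treatment, with log2 changes of 0.25 (SE 0.03, adjusted p = 3.38e-06) and 0.32 (SE 0.03, adjusted p = 3.39e-08). In cortex the groups overlapped (108 to 153 and 140 to 163 CPM in PBS rats), and the changes were 0.23 (SE 0.05, adjusted p = 0.00171) and 0.18 (SE 0.05, adjusted p = 0.0165). In PBS cortex it was 0.37 (SE 0.07, adjusted p = 0.00260) in females and 0.11 (SE 0.06, adjusted p = 0.248) in males, and the difference between the sexes did not pass (adjusted p = 0.250).

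Rps10l1, which RefSeq lists as a pseudogene copy of Rps10, and Rps10 itself went opposite ways. In PBS hippocampus Rps10l1 ran from 25.3 to 32.2 CPM in ApoE3 and from 32.1 to 42.3 CPM in ApoE4 rats, a log2 change of 0.39 (SE 0.07, adjusted p = 0.00111), while Rps10 ran from 77.9 to 97.4 and from 65.4 to 82.6 CPM. In PBS cortex the Rps10l1 ranges were 28.2 to 36.1 and 32.5 to 44.9 CPM (log2 change 0.34, SE 0.07, adjusted p = 0.000816) and the Rps10 ranges 70.1 to 106 and 68.1 to 80.8 CPM. Counts of both rows summed gave changes of -0.01 (SE 0.04, adjusted p = 0.931) in hippocampus and -0.09 (SE 0.05, adjusted p = 0.190) in cortex, which did not pass. The summed medians were 109 and 111 CPM in ApoE3 and ApoE4 hippocampus of PBS rats.

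**Figure D4:**
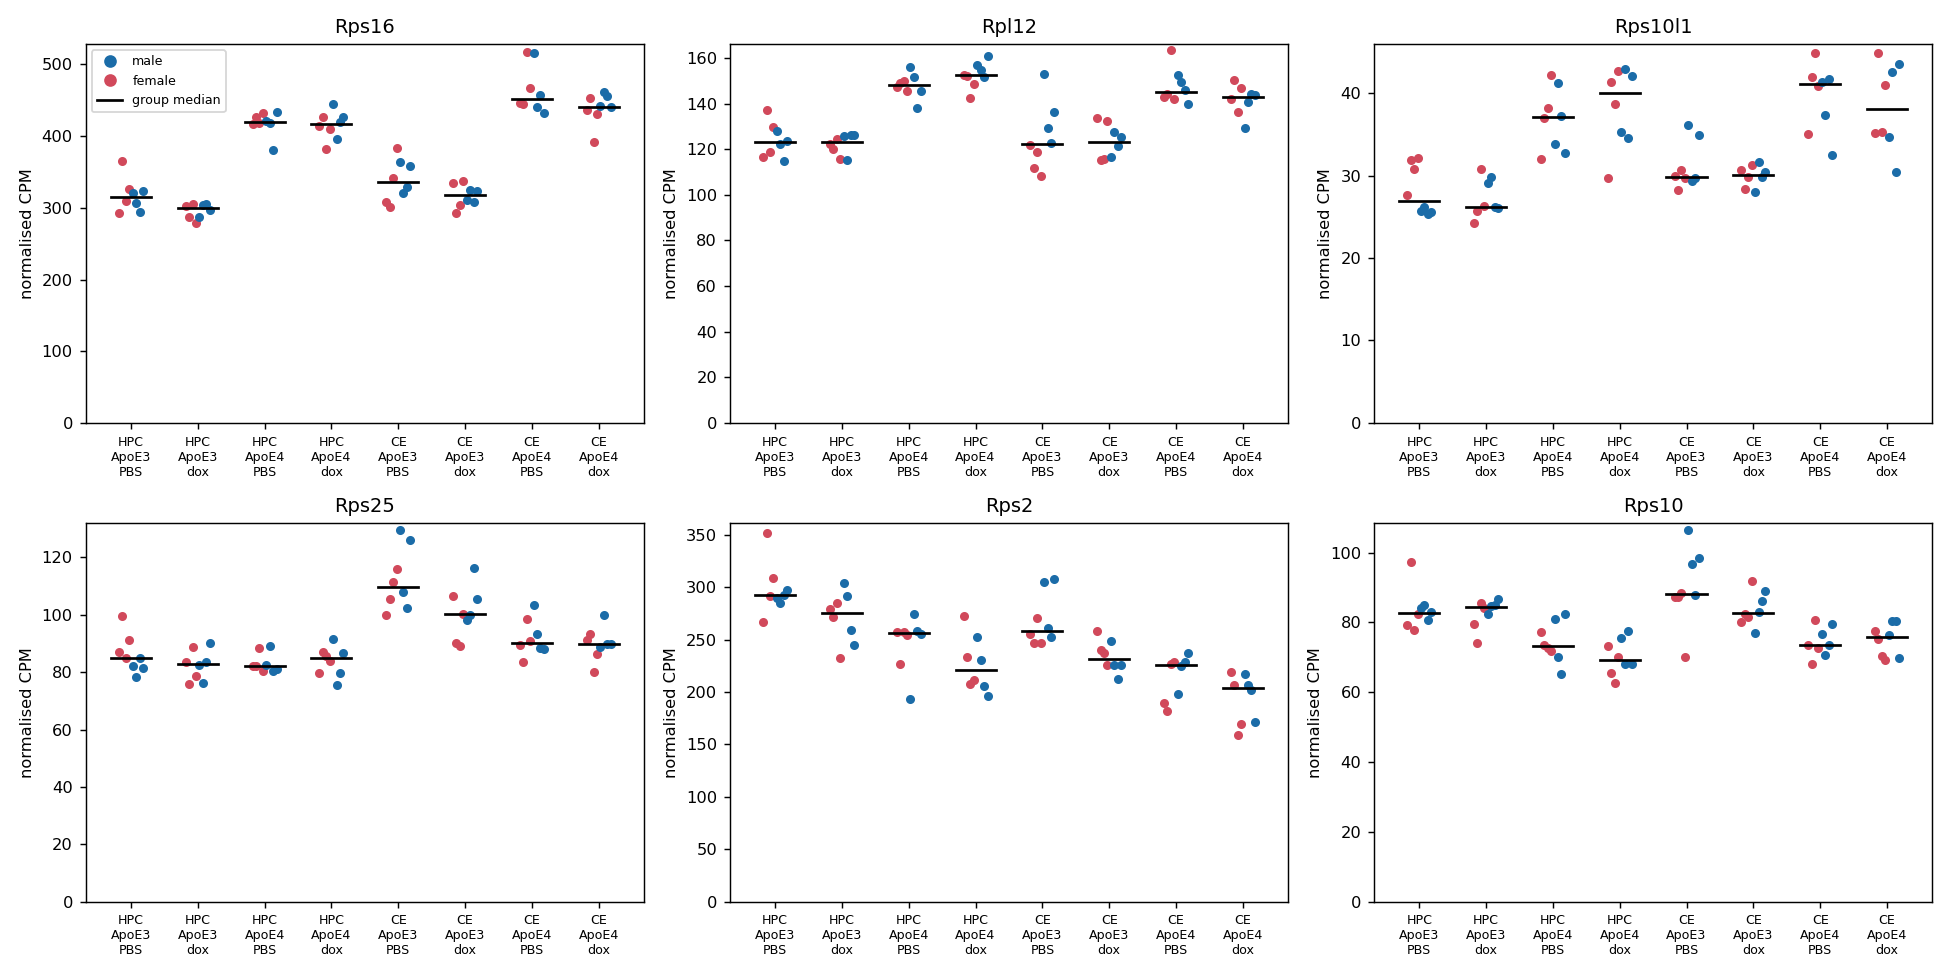
Normalised CPM of 6 ribosomal protein genes in the 8 groups, with 1 point per library (4 males and 4 females per group) and the group median as a bar, on axes that start at 0. Rps16 is above its ApoE3 counterpart in every ApoE4 group without overlap, Rpl12 and Rps10l1 have higher ApoE4 medians, Rps2 and Rps10 have lower ApoE4 medians in both regions, and Rps25 has lower ApoE4 medians in cortex.

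Rps16 lies on the chromosome of Apoe, with 137 protein-coding genes between them in the RefSeq gene order (GRCr8), and had the most positive change of all members in PBS cortex. Rpl28, Rpl13a, Rpl18, Rps12, Rps3, Rpl27a and Rps15a lie on the same chromosome with 208 or more genes between them and Apoe. Their changes in PBS cortex were below 0, from -0.09 (Rps15a) to -0.19 (Rps12), like the median of the family. In PBS hippocampus they had changes from -0.09 (Rps15a) to 0.02 (Rpl18) and none of them passed.

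Rpl30, a large subunit protein that also binds the selenocysteine insertion element, split the ApoE3 rats. In hippocampus 8 of the 16 ApoE3 libraries lay at 19.8 to 31.9 CPM and the other 8 at 42.6 to 49.9 CPM. In cortex 8 lay at 25.8 to 31.9 CPM and the other 8 at 50.6 to 64.2 CPM. The low libraries came from the same 8 rats in both regions: 41, 56, 58 and 61 of the PBS rats and 47, 51, 66 and 72 of the doxorubicin rats, 3 of them male. All 16 ApoE4 rats lay at 40.1 to 47.8 CPM in hippocampus and 39.7 to 54.4 CPM in cortex. In hippocampus this range overlapped that of the high ApoE3 rats, and in cortex most ApoE4 rats lay below all of them.

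The gap within ApoE3 rats was 0.41 on the log2 scale in hippocampus and 0.66 in cortex. Of 11765 genes 19, Rpl30 included, had as large a gap in both regions, and the member with the next largest, Rpl22l1, had 0.06. Between genotypes Rpl30 had log2 changes of 0.20 to 0.33 in the 4 comparisons (SE 0.16 to 0.17) and did not pass, and in males of PBS cortex the value was -0.05. The rats were not divided by this gene for any test.

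**Figure D5:**
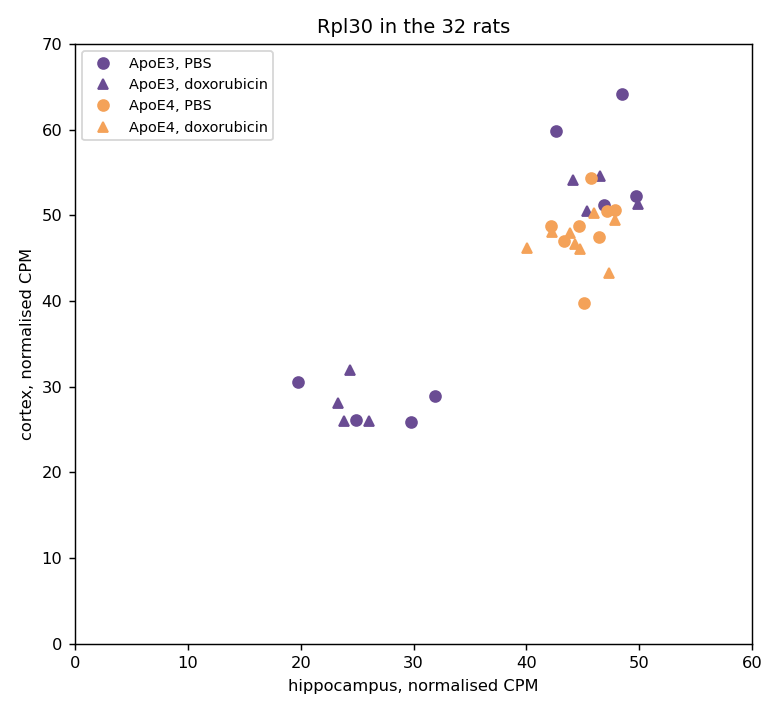
Rpl30 in hippocampus (horizontal) and cortex (vertical) of the 32 rats in normalised CPM, with 1 point per rat, colour for genotype and shape for treatment. A set of 8 ApoE3 rats, 4 of each treatment, lie below 32 CPM on both axes, and the other 8 ApoE3 rats lie above 40 CPM on both, as high as or higher than most of the 16 ApoE4 rats in cortex.

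Between regions, most members had values below cortex in hippocampus of PBS rats, in a comparison that called a large share of all genes. In ApoE3 rats 27 of 67 were lower and 3 higher in hippocampus (background 51%: 23.6% lower, 27.5% higher), with a median of -0.11 against 0.02 over all genes. In ApoE4 rats 20 of 68 were lower and 7 higher (background 50.4%: 25.7% lower, 24.7% higher), with a median of -0.05 against 0.00028. The share called in either direction, 44.8% and 39.7%, was below the background, and the lower calls alone were a larger share than the background of lower calls. Of the lower members 17 were shared, 63.0% of the ApoE3 list and 85% of the ApoE4 list. Without rat 58, ApoE3 rats had 44 lower and 2 higher members of 67 and a median of -0.18, where 48.8% of all genes passed, so that the share called was then above the background. With RLE scaling ApoE3 rats had 33 lower and 3 higher members, where 50.6% passed. With spike-in scaling the ApoE4 median turned to 0.02 against 0.06 over all genes, and the ApoE3 median was -0.05 against 0.08. RLE scaling split the ApoE4 calls into 16 lower and 10 higher, where 50.7% passed. Cell type markers also differed between regions. In both genotypes 5 of 5 astrocyte and 3 of 3 excitatory neuron markers were called higher in hippocampus, and 4 of 4 striatal markers lower. Oligodendrocyte markers were called lower in 7 of 7 cases in ApoE3 and 5 of 7 in ApoE4 rats, with sums of 6544 to 8456 CPM in hippocampus and 7768 to 11691 CPM in cortex of ApoE3 rats. Meningeal fibroblast markers were called higher in 5 of 5 cases in ApoE3 and 2 of 5 in ApoE4 rats, smooth muscle markers in 3 of 3 and 0 of 3, and choroid plexus markers in 0 of 6 and 6 of 6. Their part in the ribosomal protein result was not tested. These comparisons share the PBS libraries with those of genotype.

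Rpl31 at the rim of the exit tunnel was lower in hippocampus in both genotypes. In ApoE3 rats its hippocampal range was 183 to 212 CPM and its cortical range 207 to 295 CPM, and in ApoE4 rats these were 176 to 196 and 202 to 234 CPM. The ApoE4 ranges did not overlap and the ApoE3 ranges did, with log2 changes of -0.24 (SE 0.04, adjusted p = 3.66e-06) and -0.31 (SE 0.05, adjusted p = 4.33e-06). Rps25 had -0.38 (SE 0.06, adjusted p = 9.20e-07) in ApoE3 and -0.17 (SE 0.04, adjusted p = 0.00140) in ApoE4 rats. Rpl24, and Rpl17, Rpl26 and Rpl35 around the tunnel exit, were lower in both genotypes, with changes of -0.14 to -0.31.

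Rplp0 and Rps28 went the other way. In ApoE3 rats the hippocampal range of Rplp0 was 303 to 379 CPM and the cortical range 224 to 322 CPM, which overlapped, and in ApoE4 rats they were 298 to 338 and 243 to 285 CPM, which did not. The log2 changes were 0.26 (SE 0.05, adjusted p = 0.000107) and 0.24 (SE 0.03, adjusted p = 4.59e-07). Rps28 of the small subunit had 0.25 (SE 0.06, adjusted p = 0.00103) and 0.23 (SE 0.05, adjusted p = 9.09e-05). Rps2 was higher in hippocampus of ApoE3 rats (0.15, SE 0.06, adjusted p = 0.0282) and had 0.18 (SE 0.08, adjusted p = 0.0511) in ApoE4 rats, which did not pass. In ApoE4 rats Rpl18, Rpl22, Rpl3 and Rpl28 were also higher in hippocampus, with changes of 0.08 to 0.15. Rpl38, which is known for its part in translating homeobox genes, was called higher in ApoE4 hippocampus, but its libraries held 5 to 17 counts there and 0 to 5 in cortex, so the row is too sparse to give a size.

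Sex was compared over the 4 groups of each region. In cortex 63 of 67 members had lower values in females (median -0.06, all genes 0.0036). Spike-in scaling turned the values to 65 of 67 higher (median 0.09, all genes 0.15). An unadjusted p under 0.05 was found for 19 (28.4%), against 15.0% of all genes. With edgeR 0 members passed, where 0.705% of all genes did (0.438% lower, 0.268% higher), and with DESeq2 4 passed, where 3.11% did. Striatal markers had lower values in female cortex in 4 of 4 cases, with 3 called, and their summed level ran from 147 to 384 CPM in males and from 125 to 230.0 CPM in females. Oligodendrocyte markers had lower values in 7 of 7 cases with 0 called, at 8528 to 12415 CPM in males and 7696 to 12283 CPM in females. The part of either in the sex comparison was not tested. Rpl22l1 had the smallest p (-0.18, SE 0.05, adjusted p = 0.0562), while its parent Rpl22 had -0.05 (SE 0.04, adjusted p = 0.512). In hippocampus 45 of 68 were above the male value (median 0.01, all genes -0.0060), 1 had an unadjusted p under 0.05 (1.47%, against 9.49% of all genes), and 0 passed with either tool (background 0.11%: 0.0454% lower, 0.0649% higher). Rpl10l had 0.60 (SE 0.15, adjusted p = 0.128) there on a median of 1.72 CPM over all libraries.

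Other genes of protein synthesis were read in the same fits. Of 14 measured translation factors and related genes with a known pyrimidine tract, 14 had lower values in ApoE4 cortex of PBS rats and 5 passed (median -0.08), where 18.2% of all genes passed (8.57% lower). These were Eef1b2 (-0.28, SE 0.04, adjusted p = 8.32e-06) and Eef1d (-0.15, SE 0.05, adjusted p = 0.0187), the exchange factors of elongation factor 1, Npm1, a nucleolar chaperone (-0.20, SE 0.05, adjusted p = 0.00307), and the initiation factors Eif4b (-0.08, SE 0.03, adjusted p = 0.0328) and Eif3f (-0.11, SE 0.04, adjusted p = 0.0483). Of 31 ribosome assembly genes 29 had lower values and 6 (19.4%) passed, near the 18.2% of all genes, all lower (median -0.08), among them the box C/D protein Nop56 (-0.14, SE 0.05, adjusted p = 0.0243) and Eif6, which keeps the subunits apart (-0.13, SE 0.04, adjusted p = 0.0260).

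Of 71 genes of the mitochondrial ribosome 65 had lower values and 15 (21.1%) passed, near the 18.2% of all genes, all lower (median -0.11). Of 11 genes of RNA polymerase I, which transcribes ribosomal RNA, 1 passed: Taf1d (-0.30, SE 0.10, adjusted p = 0.0265). Of 13 genes of the mTOR and p53 pathways 3 (23.1%) passed, near that share as well: the repressors Eif4ebp2 (0.22, SE 0.07, adjusted p = 0.0254) and Tsc1 (0.13, SE 0.04, adjusted p = 0.0284) were higher and Mdm2 (-0.16, SE 0.06, adjusted p = 0.0478) was lower. Larp1 had 0.11 (SE 0.04, adjusted p = 0.0695) and did not pass. In hippocampus of PBS rats 1 translation factor, 1 assembly gene and 1 mitochondrial ribosome gene passed, each lower, and 0 polymerase I and 0 pathway genes did. Of all genes 3.80% passed there (1.88% lower). Under doxorubicin 0 genes of these lists passed in any comparison, and the mitochondrial ribosome genes had medians of -0.06 in ApoE3 cortex and -0.02 to -0.0071 in the others.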

How the data were processed

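The authors aligned reads with STAR 2.5.2b and used DESeq2, per the submitters' processing notes. The read counter, genome build and strand setting are not given in the sources used here, so overlapping or antisense reads cannot be separated. The deposited tables hold unmodified read counts per Ensembl gene. The authors' tables for doxorubicin against PBS give log2 fold changes and p-values, raw and adjusted, and a deposited signal per library that equals the count divided by a size factor.

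Counts were tested with edgeR 4.0.16 (R 4.3.3): filterByExpr, TMM scaling, quasi-likelihood F-test, and Benjamini-Hochberg adjustment over all genes tested with a threshold of 0.05. Spike-in rows and a donor sequence row were left out. Standard errors (SE) were taken from the log2 change and its F statistic. Doxorubicin was tested on 16 libraries with sex as covariate. Genotype and its interaction with treatment were tested on the 32 libraries of a region, region on the 32 of a genotype, and sex with the group as covariate. CPM used TMM over 64 libraries. For 3 symbols with more than 1 row, the row of highest total was used. Alternatives were RLE, upper quartile and spike-in scaling, no filter, DESeq2 1.42.0, summed rows, the rat as block and left-out libraries. The fits were tested on simulated counts. Each rat gave both regions, and deviations from the group means of its 2 libraries had correlations from -0.089 to 0.21 (median 0.078, 32 rats).

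The members and gene lists were chosen with earlier results of these data known. Named in each comparison are up to 10 members of smallest p in each direction that passed, else the 3 of smallest p, the strongest opposite to the median, and a fixed set of core members and paralogs, such as Rplp0, Rpl5, Rpl11 and Rps27l; where the text gives fewer, those left out are in the counts. Genotype in doxorubicin rats, the splits by sex, the sex by genotype test, the Rpl30 gap and the left-out rats were chosen after seeing the data. The number of libraries and their depth limit the precision of each value. Results of some genes are not reported here.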

Additional observations from a re-analysis of the deposited data

Results flagged for a closer look

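Single libraries stood apart from the other 7 of their group in 7 of 88 sets of 8 values checked, where chance gives about 1 in 20. In ApoE3 PBS hippocampus, rat 58 had 1.19% of its counts in ribosomal protein genes (others 0.975% to 1.07%), with Rps16 at 365 CPM (others 293 to 327), Rps10 at 97.4 CPM (77.9 to 85.0) and Rplp0 at 379 CPM (303 to 333). In ApoE4 doxorubicin cortex, rat 32 was the low library, with 0.891% (others 0.967% to 1.01%) and Rps16 at 392 CPM (430 to 462). In ApoE4 PBS hippocampus, rat 4 had Rps16 at 381 CPM (417 to 433).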

How the results depend on the processing

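Spike-in scaling took the count of members called by genotype to 0 in hippocampus and cortex of PBS rats, where 0.746% and 2.01% of all genes passed. In doxorubicin rats it gave 0 in hippocampus and 1 in cortex, where 0.688% and 1.61% passed. By region it gave 0 in ApoE3 and 1 in ApoE4 rats, where 24.4% and 23.2% passed. For the difference of the genotype effect between sexes in hippocampus of PBS rats it gave 47 against 0. There it called 21.3% of all genes against 0%, and the median of all genes was -0.65. With males only and females only, 3 and 2 members were called in PBS hippocampus, 3 and 3 in doxorubicin hippocampus, 7 and 5 in doxorubicin cortex, and 47 and 3 in PBS cortex, where the members' median less that of all genes was -0.244 and -0.0265. Without rat 32, 18 were called by genotype in doxorubicin cortex, and without rat 58, 46 by region in ApoE3 rats. DESeq2 called 4 members by sex in cortex and 5 for the sex difference of the genotype effect in PBS cortex. Leaving out 1 PBS library at a time gave 23 to 47 called members in cortex (lowest without ApoE3 rats 37 and 45 and ApoE4 rat 7) and 5 to 7 in hippocampus, with medians less those of all genes of -0.17 to -0.11 and -0.07 to -0.02. The share of all genes called in each of these fits is not given here. With the rat as replicate block, 28 of 67 and 27 of 68 members were called between regions in ApoE3 and ApoE4 rats against 30 and 27. In these block fits 51.0% and 50.2% of all genes passed, a larger share than of the members. For the difference of the doxorubicin effect between regions the block fits called 0 members in either genotype, where 0.0583% (ApoE3) and 0% (ApoE4) of all genes passed. Single genes reversed were Rps12 in ApoE3 hippocampus (-0.00059 with no filter), Rps18l1 in ApoE3 cortex (-0.000437 with upper quartile scaling, -0.000440 with DESeq2, -0.0223 without rats 72 and 58), Rpl41 there (-0.0117 without those rats), Rps10 in ApoE4 cortex (-0.000358 with upper quartile scaling, -0.000771 in a fit of 32 libraries), Rps27l in the hippocampal genotype by doxorubicin term (0.0029 with upper quartile scaling, 0.0079 without rat 58) and, from a larger value of 0.20, Rpl30 by genotype in male PBS cortex (-0.0495). The cause of these changes was not tested. Counts near 0 in the rows of Rpl38, Rpl7a, Rps6 and Rps18 allow no statement on those genes.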
